A study of Mus musculus with 16 samples.

Results

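The mitochondrial genome encodes a small set of respiratory chain proteins, and 10 of its 13 protein genes were followed here across mouse bone marrow stem and progenitor cells. They were ND1, ND2, ND3 and ND4 of complex I, CYTB of complex III, COX1, COX2 and COX3 of complex IV, and ATP6 and ATP8 of complex V, chosen by name and listed in all 16 libraries. The deposited tables list 26595 features in one experiment and 36930 in the other. KO LSC (3 libraries) were leukemia stem cells (LSCs) from C57BL/6 recipients that received CD93-/- LSK cells transduced with BCR-ABL1-GFP, a vector that carries the fusion oncogene of chronic myeloid leukemia (CML). WT LSC (3) came from the same procedure with wild-type BL/6 LSK cells. KO LSK (2) and WT LSK (2) were naive bone marrow cells of the same 2 genotypes, LSK being the marrow fraction without lineage markers but with Sca-1 and c-Kit, which holds the blood stem cells. MCP LSC (3) and Veh LSC (3) were LSCs of wild-type CML mice given metoclopramide (MCP) at 10 mg/kg or vehicle. All mice are labelled as 8 weeks of age, and recipients were not irradiated, so they kept their own blood formation. The 2 experiments were deposited separately and were tested separately. For the drug libraries the titles say LSC and the source field says LSK; they are called LSC here.

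Each cell carries many copies of a circular DNA inside its mitochondria. It is read out as long transcripts that are cut at the tRNA genes that lie between most of the protein genes, and it gives the core subunits of complexes I, III and IV and of the ATP synthase, complex V. The remaining subunits, and the factors that copy, transcribe and translate this DNA, are nuclear genes. Blood stem cells are known for low oxidative metabolism, and CML stem cells have been described as more oxidative.

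In GENCODE M21 on GRCm38, the build the submitters' processing notes name, all 10 genes were single-exon protein-coding genes on the plus strand of chromosome M. In genome order they were ND1 (chrM:2751-3707), ND2 (chrM:3914-4951), COX1 (chrM:5328-6872), COX2 (chrM:7013-7696), ATP8 (chrM:7766-7969), ATP6 (chrM:7927-8607), COX3 (chrM:8607-9390), ND3 (chrM:9459-9806), ND4 (chrM:10167-11544) and CYTB (chrM:14145-15288). They ranged in length from 204 bases for ATP8 to 1545 bases for COX1. ATP8 and ATP6 share 43 bases of one transcript in 2 reading frames, and ND4 shares 7 bases with ND4L. Both stretches are shown because reads there belong to both genes, and the sources used here do not say how such reads were counted. Capitals mark the shared bases, in chrM:7907-7989 and chrM:10147-10193, plus strand.
ATP8-ATP6: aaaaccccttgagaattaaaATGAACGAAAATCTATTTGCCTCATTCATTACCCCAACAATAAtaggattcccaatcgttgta
ND4L-ND4: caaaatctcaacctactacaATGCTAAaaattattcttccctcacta
The capitals of each line open with the start codon of the second gene and close with the stop codon of the first. COX3, ND4 and CYTB end in a single T of an incomplete stop codon, which the poly(A) tail completes. Their last 30 bases are shown with that T in capitals (chrM:9361-9390, chrM:11515-11544 and chrM:15259-15288).
COX3: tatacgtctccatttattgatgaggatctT
ND4: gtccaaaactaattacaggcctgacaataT
CYTB: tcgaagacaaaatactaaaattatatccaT

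The nuclear genome holds copies of this DNA, so reads of some of these genes match 2 places. With at least 99% identity over at least 100 bases, 6 of the 10 genes had an annotated nuclear copy, all in 1 stretch on the minus strand of chromosome 1 (chr1:24611535-24616197). ATP6 matched Gm10925 over 678 of its 681 bases, COX2 matched Gm28661 over 681 of 684, and COX3 matched Gm28437 over 783 of 784, each without a mismatch. ND4 matched Gm28439 without a mismatch over 876 of its 1378 bases. ND3 differed from Gm28438 by T3C over 345 bases, and COX1 differed from Gm29216 by A1066T over 483 bases, with positions counted from the first base of the gene. The windows below show these bases, which are the means of telling gene and copy apart in the aligned stretches, in capitals and in the direction of the gene (ND3, chrM:9459-9481; Gm28438, chr1:24613097-24613119; COX1, chrM:6390-6413; Gm29216, chr1:24616165-24616188).
ND3: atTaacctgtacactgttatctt
Gm28438: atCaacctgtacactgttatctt
COX1: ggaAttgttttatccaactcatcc
Gm29216: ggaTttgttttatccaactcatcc
The best annotated copy of CYTB had 92.9% identity and that of ND2 96.7%, and no annotated copy of ND1 or ATP8 was found. The search covered annotated transcripts alone, so it does not show that ND1 or ATP8 has no nuclear copy. ATP8 lies between COX2 and ATP6, whose copies Gm28661 (chr1:24614885-24615565) and Gm10925 (chr1:24613974-24614651) lie in the chromosome 1 stretch. None of the 20 copies found is listed in the tables analysed here. The sources used here do not say how reads that match both places were treated.

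The values are taken as RPKM, reads per kilobase of gene and 1e+06 mapped reads. The unit was inferred from the values, so genes are compared with each other per length. Cd93, the targeted gene, stood at 0.003, 44.3 and 0.003 RPKM in KO LSC, at 0.003, 0.003 and 5.74 RPKM in WT LSC, at 1.01 and 2.1 RPKM in KO LSK and at 5.34 and 22.9 RPKM in WT LSK, where 0.003 is the lowest value of the table. The second KO LSC library held the highest of these values, which lay below the 127 RPKM median of its 2310 features above the lowest value. This value alone does not show that the label is wrong. The library is called the library labelled KO LSC 2 below, and the tests, the shares and the list counts that use it are also given without it. Cd93 was also at the lowest value in the first and the second WT LSC library, so the 2 LSC groups are described by their labels and not by measured Cd93. Which part of Cd93 the deletion removed is not stated in the labels. Features above the lowest value numbered 1230 to 2967 in KO LSC, 5525 to 7956 in WT LSC, 14279 to 14906 in KO LSK, 14839 to 14865 in WT LSK, 15587 to 16447 in MCP LSC and 19554 to 20014 in Veh LSC. Within-group correlations of log2 values were 0.459 to 0.541 in KO LSC, 0.669 to 0.728 in WT LSC and at least 0.926 in the other 4 groups. Of the defining LSK markers, Kit lay at that minimum in each KO LSC library and reached at most 16.8 RPKM in WT LSC, and Ly6a, which encodes Sca-1, was at most 1.83 RPKM in KO LSC and 5.41 RPKM in WT LSC. In MCP LSC and Veh LSC Kit lay between 62.4 and 77.5 RPKM, while Ly6a lay between 8.43 and 23.9 RPKM, against 529 to 790 RPKM in KO LSK and WT LSK. Estimated depths were 3.09 to 7.74, in units of 1e+06 reads, for 6 of the 10 libraries of the CD93 experiment, and no estimate was obtained for the others.

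The 10 genes together made up a larger part of the signal in the leukemic than in the naive cells of the CD93 experiment. Their summed RPKM was 6.58%, 2.61% and 6.11% of the column total in KO LSC and 4.5%, 3.74% and 5.64% in WT LSC. In KO LSK it was 1.87% and 2.35%, and in WT LSK 2.22% and 1.77%. It was 2.87%, 2.87% and 2.71% in MCP LSC and 2.6%, 2.59% and 2.72% in Veh LSC. From low to high the means were 1.99% ± 0.316 in WT LSK (SD, n = 2), 2.11% ± 0.337 in KO LSK (n = 2), 2.64% ± 0.0688 in Veh LSC (n = 3), 2.81% ± 0.0939 in MCP LSC (n = 3), 4.63% ± 0.959 in WT LSC (n = 3) and 5.1% ± 2.17 in KO LSC (n = 3), or 6.34% ± 0.333 without the library labelled KO LSC 2 (n = 2). The ranges of KO and WT overlapped in LSCs, although not without that library, and in LSK cells. Those of MCP and Veh overlapped on this total. All 6 LSC shares of the CD93 experiment lay above the 4 LSK shares, the library labelled KO LSC 2 by the least. As a share of reads, RPKM times gene length, the order of LSC and LSK was the same, at 7.9%, 3.61% and 7.8% in KO LSC, 5.51%, 4.18% and 6.52% in WT LSC, 1.95% and 2.79% in KO LSK and 2.48% and 1.58% in WT LSK. On this scale MCP LSC, at 2.44%, 2.49% and 2.42%, lay above Veh LSC, at 2.07%, 2.15% and 2.15%, without overlap. No p was computed for these sums.

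**Figure D1:**
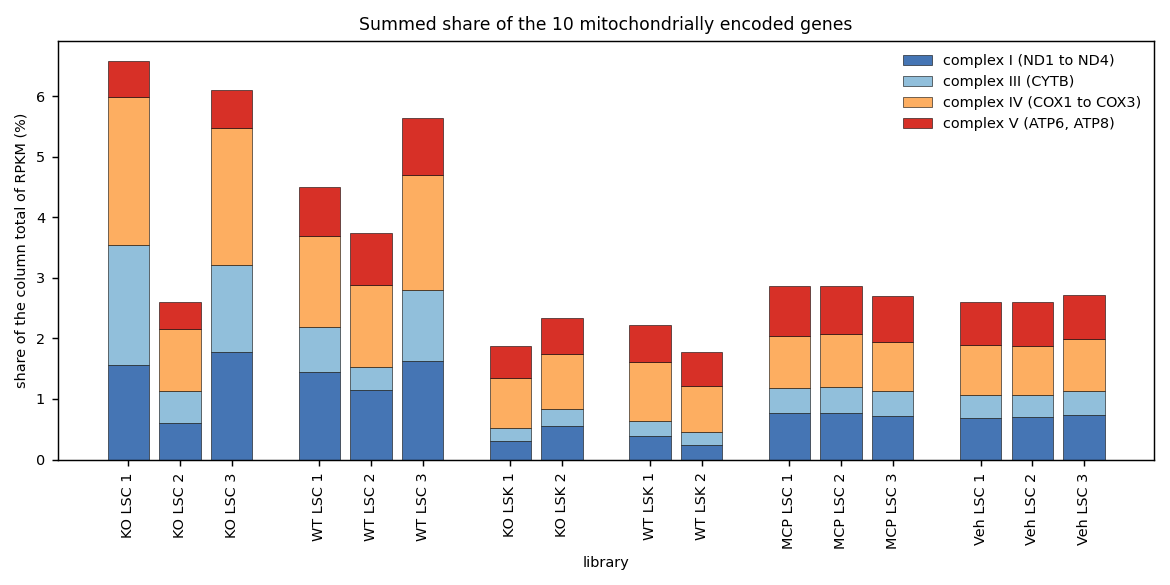
Summed RPKM of the 10 genes as a percent of the column total (y axis) in each of the 16 libraries (x axis), stacked by respiratory complex. KO LSC libraries reach 6.58%, 2.61% and 6.11% and WT LSC libraries 3.74% to 5.64%, KO LSK and WT LSK libraries stay between 1.77% and 2.35%, and MCP LSC and Veh LSC between 2.59% and 2.87%.

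Complex I takes electrons from NADH, and ND1, ND2, ND3 and ND4 are subunits of its membrane arm, of which ND1 helps form the quinone site and ND2 and ND4 are proton pumping modules. ND1 stood at 8737, 2761 and 3648 RPKM in KO LSC, 8892, 5007 and 7861 RPKM in WT LSC, 1709 and 2827 RPKM in KO LSK and 1834 and 1111 RPKM in WT LSK. ND2 stood at 3268, 3196 and 14315 RPKM in KO LSC, 3731, 4278 and 3954 RPKM in WT LSC, 781 and 1768 RPKM in KO LSK and 1127 and 482 RPKM in WT LSK. ND4 stood at 5081, 2122 and 2351 RPKM in KO LSC, 4982, 3222 and 5936 RPKM in WT LSC, 827 and 1766 RPKM in KO LSK and 1353 and 602 RPKM in WT LSK. Both LSC groups lay above both LSK groups for ND2 and ND4 in every library, and for ND1 in every library but the one labelled KO LSC 2, which lay below the higher KO LSK library. ND3, the lowest of the 10 per kilobase in all 16 libraries except the third KO LSC library, stood at 169, 174 and 1718 RPKM in KO LSC, 405, 855 and 497 RPKM in WT LSC, 306 and 637 RPKM in KO LSK and 356 and 169.5 RPKM in WT LSK. The third KO LSC library held the highest ND2 and the highest ND3 of all 16 libraries, and the ND3 values of its group spanned both ends of the CD93 experiment.

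CYTB is the cytochrome b that carries the quinone reactions of complex III. It stood at 21978, 7150.0 and 17842 RPKM in KO LSC, 9120.2, 4462 and 13153 RPKM in WT LSC, 2417 and 3697 RPKM in KO LSK and 3093 and 2133 RPKM in WT LSK. All LSC values lay above all LSK values, and the first and the third KO LSC library were the highest of the series. COX1 holds the heme-copper center of cytochrome c oxidase, complex IV, COX2 receives the electrons of cytochrome c, and COX3 is the other core subunit encoded here. COX1 stood at 13983, 5768 and 13146 RPKM in KO LSC, 6969, 7416 and 10246 RPKM in WT LSC, 3567 and 4507 RPKM in KO LSK and 4683 and 2947 RPKM in WT LSK. COX2 stood at 7355, 2505 and 12903 RPKM in KO LSC, 8241, 5122 and 7252 RPKM in WT LSC, 2261 and 3008 RPKM in KO LSK and 2592 and 1578 RPKM in WT LSK. COX3 stood at 5585, 5807 and 1720.5 RPKM in KO LSC, 3584, 3131 and 3721 RPKM in WT LSC, 3722 and 4123 RPKM in KO LSK and 4396 and 3165 RPKM in WT LSK. COX1 separated LSC from LSK libraries, COX2 did so apart from the library labelled KO LSC 2, and COX3 did not separate them.

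ATP6 is the subunit a of the ATP synthase that lets protons through the membrane, and ATP8 is a small partner subunit next to it. ATP6 stood at 5705, 5378 and 7018 RPKM in KO LSC, 8406, 6898 and 8945 RPKM in WT LSC, 3906 and 5558 RPKM in KO LSK and 5093 and 3499 RPKM in WT LSK. ATP8 stood at 882, 627 and 776 RPKM in KO LSC, 1649, 3059 and 1754 RPKM in WT LSC, 2109 and 2144 RPKM in KO LSK and 2194 and 2075 RPKM in WT LSK. The 3 KO LSC libraries held the 3 lowest ATP8 values of all 16 libraries, and WT LSC, KO LSK and WT LSK overlapped. The lowest ATP6 value of WT LSC lay above every LSK value, and KO LSC overlapped both WT LSC and KO LSK.

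**Figure D2:**
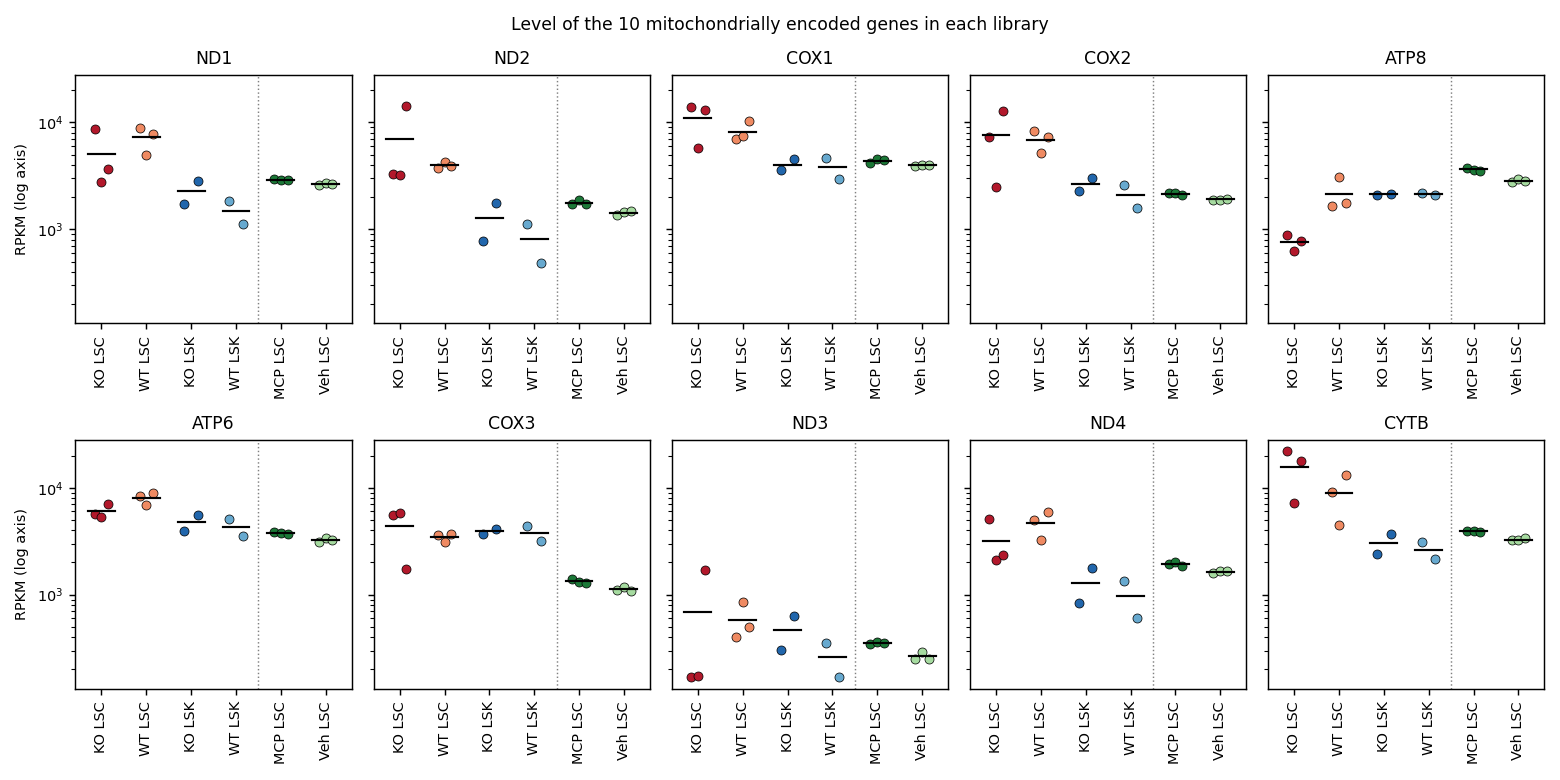
Level of each of the 10 genes in RPKM (log axis) in each library (points) with the mean of each group (bars); the dotted line parts the CD93 experiment (left) from the drug experiment (right). ATP8 is lower in the 3 KO LSC libraries, at 627 to 882 RPKM, than in any other library, and ND2 and CYTB lie higher in KO LSC and WT LSC than in KO LSK and WT LSK.

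The first comparison sets leukemia stem cells labelled CD93-/- against those labelled wild type. Of the 10 genes, 1 passed the test between KO LSC and WT LSC: ATP8 fell by 1.45 on the log2 scale (SE 0.35, adjusted p = 0.0404, limma on log2(RPKM + 1), Benjamini-Hochberg over 13485 features), which is 0.365 of the WT LSC level. Of all tested features 8.81% passed, 8.74% as lower. The 2 groups did not overlap for ATP8, lower in KO LSC, which held for 14.1% of all features, and they overlapped for the other 9 genes. The differences of those 9 lay between -0.66 for ND1 (adjusted p = 0.537) and 0.80 for CYTB (adjusted p = 0.537). The median over the 10 genes was -0.27, beside -0.77 over all tested features. Without the library labelled KO LSC 2 the ATP8 difference was -1.32 and its adjusted p 0.0858. Leaving out any WT LSC library also ended the call, with adjusted p from 0.0642 to 0.161, while the difference stayed between -1.62 and -1.17 in all 6 such fits. In bulk samples such as these, fewer cells of a type and less RNA per cell cannot be told apart. Summed neutrophil markers (9 genes) were 31500 to 55000 RPKM in KO LSC and 63600 to 110000 RPKM in WT LSC, with 4 to 5 of the 9 at the lowest value in a KO LSC library and 1 to 4 in a WT LSC library, and their part in the result was not tested.

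In naive LSK cells the comparison of KO with WT gave no call. None of the 10 genes passed limma's test (adjusted p = 1 for each), where 1.83% of all tested features did, and 0 of the 10 had an unadjusted p under 0.05 (smallest 0.329), where 8.7% of all features had. KO LSK and WT LSK overlapped for all 10. Differences ran from -0.00 for ATP8 to 0.84 for ND3 with a median of 0.29, beside -0.11 over all features, and 9 of 10 were above 0, as were 42.5% of all features, or 5 of 10 after quantile normalization and 6 of 10 after scaling each library to the same total. With 2 libraries a group the SE of these differences was 0.29 for ATP6 to 1.22 for ND3, so changes of such size were not detectable.

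The next comparison asks what differs between leukemic and naive cells of the wild-type label. In WT LSC against WT LSK, 4 of the 10 genes passed and all 4 were higher: ND1 by 2.30 (SE 0.55, adjusted p = 0.00954), ND4 by 2.34 (SE 0.59, adjusted p = 0.0126), ND2 by 2.43 (SE 0.74, adjusted p = 0.029) and ATP6 by 0.93 (SE 0.26, adjusted p = 0.0212) on the log2 scale. These are 4.93, 5.06, 5.4 and 1.9 times the WT LSK level. After quantile normalization ND2 passed alone, and ATP6 turned to -0.47. Of all tested features 43.8% passed, but 1.45% passed as higher. CYTB (1.66, adjusted p = 0.0542), COX2 (1.74, adjusted p = 0.0596), COX1 (1.12, adjusted p = 0.0649) and ND3 (1.18, adjusted p = 0.444) did not pass, although the groups of these 4 did not overlap either. In all, 8 genes were without overlap and higher in WT LSC, as were 6.29% of all features. COX3 (-0.10, adjusted p = 0.9) and ATP8 (-0.04, adjusted p = 0.945) overlapped. The median of the 10 was 1.42 in a comparison whose median over all features was -1.94. Without the second WT LSK library, the lower of the 2 for all 10 genes, no gene passed and the differences of the 4 were 0.66 to 1.94, and without the first or the third WT LSC library ND1 and ND4 passed. Summed stem and progenitor markers (10 genes) were 93.5 to 140 RPKM in WT LSC and 1770 to 2570 RPKM in WT LSK, neutrophil markers 63600 to 110000 RPKM in WT LSC and 1970 to 5620 RPKM in WT LSK, and macrophage markers (7 genes) 3750 to 10200 RPKM in WT LSC and 897 to 1650 RPKM in WT LSK. Erythroid markers (7 genes) summed to 2560 to 4780 RPKM in WT LSC and 383 to 784 RPKM in WT LSK, and 4 nuclear-retained RNAs to 5710 to 13900 RPKM in WT LSC and 768 to 1560 RPKM in WT LSK. Single genes did not all follow the marker sums. Below 0 were 3 of 7 erythroid markers (median log2 difference 0.08), 2 of 7 macrophage markers (2.17) and 2 of 9 neutrophil markers (3.31). All 10 stem and progenitor markers were below 0 and all 4 nuclear-retained RNAs above 0. Their part in the result was not tested.

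Between leukemic and naive cells labelled KO, 4 of the 10 genes passed, 3 of them higher in the leukemic cells. In KO LSC against KO LSK, CYTB was higher by 2.24 (SE 0.59, adjusted p = 0.0121), ND2 by 2.17 (SE 0.74, adjusted p = 0.0332) and COX1 by 1.35 (SE 0.42, adjusted p = 0.0245), and ATP8 fell by 1.49 (SE 0.39, adjusted p = 0.0113). Of all tested features 62.2% passed, 0.564% as higher and 61.7% as lower. ND4 did not overlap between the groups and did not pass (1.28, adjusted p = 0.0913), so 4 genes were higher without overlap, as were 1.22% of all features. ND1 (1.02, adjusted p = 0.137), COX2 (1.25, adjusted p = 0.121), ATP6 (0.36, adjusted p = 0.25), COX3 (-0.04, adjusted p = 0.958) and ND3 (-0.25, adjusted p = 0.849) overlapped. The median of the 10 was 1.13, beside -3.06 over all features. Without the library labelled KO LSC 2 the same 4 genes passed, with differences of 2.73 for CYTB, 2.54 for ND2, 1.76 for COX1 and -1.36 for ATP8, and COX2 passed too (1.90, adjusted p = 0.00752). In that fit 94 of 13472 features were higher and 7934 lower. ATP8 passed in all 5 fits that left out 1 library, CYTB and ND2 in 4 of 5, failing without the first KO LSK library (adjusted p = 0.0905 and 0.206), and COX1 in 1 of 5, the one without the library labelled KO LSC 2 (adjusted p = 0.0612 to 0.132 in the others), while after quantile normalization CYTB (adjusted p = 0.0933), ND2 (adjusted p = 0.096) and COX1 (adjusted p = 0.975) did not pass. Summed stem and progenitor markers were 1.34 to 304 RPKM in KO LSC, with 9 of 10 at the lowest value in each library, and 1390 to 1640 RPKM in KO LSK. Neutrophil markers summed to 31500 to 55000 RPKM in KO LSC and 2680 to 4390 RPKM in KO LSK, macrophage markers to 4930 to 7910 RPKM in KO LSC and 1980 to 2550 RPKM in KO LSK, and erythroid markers to 2840 to 3570 RPKM in KO LSC and 507 to 541 RPKM in KO LSK. The 4 nuclear-retained RNAs, among them Malat1, summed to 4840 to 17300 RPKM in KO LSC and 1220 to 1260 RPKM in KO LSK. Single genes did not all follow these sums. Below 0 were 5 of 7 macrophage markers (median log2 difference -0.39) and 4 of 7 erythroid markers (median -0.32). So were 2 of the 4 nuclear-retained RNAs (median -0.31) and 3 of the 9 neutrophil markers (median 2.48). In a KO LSC library 2 to 3 macrophage and 4 erythroid markers lay at the lowest value. The part of any of these in the result was not tested.

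The difference between these 2 leukemia effects was tested directly. None of the 10 genes passed limma's test of KO LSC minus KO LSK against WT LSC minus WT LSK, where 6.08% of all features passed, and 1 of 10 had an unadjusted p under 0.05, where 15.2% of all features had. That gene was ATP8 (-1.45, SE 0.55, unadjusted p = 0.0313, adjusted p = 0.247), and without the library labelled KO LSC 2 it was -1.32 (adjusted p = 0.325). The passing of CYTB and COX1 in one genotype and of ND1, ND4 and ATP6 in the other is therefore not shown to differ between genotypes. The KO LSC libraries enter both comparisons in which ATP8 was lower, so those 2 results share them.

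**Figure D3:**
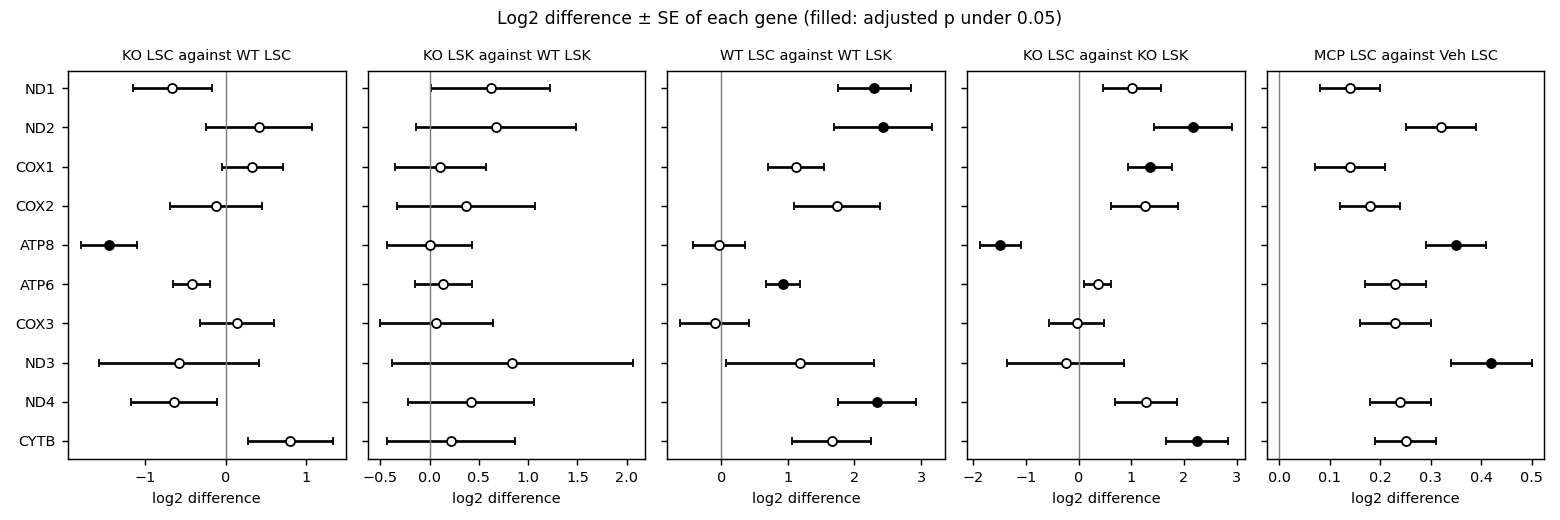
Log2 difference (point) ± SE (bar) of each of the 10 genes in the 5 comparisons, in genome order, each panel with its own scale; filled points passed an adjusted p under 0.05. ATP8 is the filled gene on the negative side in both KO LSC panels, ND1, ND2, ND4 and ATP6 are filled in WT LSC against WT LSK, and ND3 and ATP8 in MCP LSC against Veh LSC, where 6 of the 10 positive differences turn negative after quantile normalization.

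In the drug experiment the replicates lay close together, and each of the 10 genes had a slightly higher RPKM in all 3 MCP LSC libraries than in any Veh LSC library. ND3 stood at 342, 359.7 and 354 RPKM in MCP LSC, against 252, 290.3 and 250.2 RPKM in Veh LSC. ATP8 stood at 3768, 3575 and 3546 RPKM in MCP LSC, against 2777, 2931 and 2817 RPKM in Veh LSC. Their groups were well apart, and these 2 genes passed, ND3 higher by 0.42 on the log2 scale (SE 0.08, adjusted p = 0.0423) and ATP8 by 0.35 (SE 0.06, adjusted p = 0.0419), which are 1.33 and 1.28 times the Veh LSC level, although ATP8 turned to -0.11 after quantile normalization. Of the 14005 tested features 2.32% passed, 0.521% as higher. ND2 stood at 1741, 1864 and 1725 RPKM in MCP LSC, against 1349, 1452 and 1474 RPKM in Veh LSC. ND4 stood at 1937, 2004 and 1854 RPKM in MCP LSC, against 1586, 1652 and 1654 RPKM in Veh LSC. Neither passed (ND2 0.32, adjusted p = 0.0589; ND4 0.24, adjusted p = 0.0819). CYTB stood at 3914, 3931 and 3862 RPKM in MCP LSC, against 3218, 3218 and 3382 RPKM in Veh LSC. COX3 stood at 1392, 1309.5 and 1286 RPKM in MCP LSC, against 1114, 1187 and 1091 RPKM in Veh LSC. ATP6 stood at 3885, 3771 and 3722 RPKM in MCP LSC, against 3139, 3357 and 3239 RPKM in Veh LSC. For these 3 the log2 difference was 0.25, 0.23 and 0.23, with adjusted p of 0.0758, 0.101 and 0.104. ND1 stood at 2948, 2908 and 2906 RPKM in MCP LSC, against 2589.8, 2734 and 2646 RPKM in Veh LSC. COX1 stood at 4187, 4527 and 4404 RPKM in MCP LSC, against 3895, 3998 and 4013 RPKM in Veh LSC. COX2 stood at 2191, 2187 and 2098 RPKM in MCP LSC, against 1894, 1899 and 1938 RPKM in Veh LSC. These 3 had the smallest log2 differences of the 10, 0.14 for ND1 (adjusted p = 0.226), 0.14 for COX1 (adjusted p = 0.256) and 0.18 for COX2 (adjusted p = 0.14).

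The groups were without overlap and higher in MCP LSC for 10 of 10 genes and for 4.91% of all features, and after quantile normalization 4 of the 10 differences stayed above 0. The median of the 10 was 0.24, beside -0.18 over all features. It was 0.11 beside -0.30 with every column scaled to a total of 1e+06, where the same number of genes, 2, passed and all 10 stayed above 0, and -0.05 beside -0.03 after quantile normalization. No gene passed in 5 of the 6 fits that left out 1 library, and without the second Veh LSC library ND3 passed (0.49, adjusted p = 0.0439). The column totals themselves were 916180 to 951754 RPKM in MCP LSC and 828690 to 875750 RPKM in Veh LSC. The share of the total taken by the 10 genes was 2.71% to 2.87% in MCP LSC and 2.59% to 2.72% in Veh LSC, which overlapped, where the RPKM did not. The shares did not overlap with the mitochondrial rRNAs and Malat1 left out of the total (3.26% to 3.5% in MCP LSC and 2.93% to 3.16% in Veh LSC), over names that both experiments list (3.08% to 3.24% in MCP LSC and 2.85% to 2.98% in Veh LSC) or as a share of reads. Summed mast cell and basophil markers (6 genes) were 74.9 to 82 RPKM in MCP LSC and 228 to 242 RPKM in Veh LSC, stem and progenitor markers 219 to 232 RPKM in MCP LSC and 342 to 356 RPKM in Veh LSC, and neutrophil markers 255 to 365 RPKM in MCP LSC and 186 to 205 RPKM in Veh LSC. All genes of the first 2 lists were below 0. Of the 6 neutrophil markers tested, 3 were above 0 and 3 below (median log2 difference -0.06). Fewer features lay above the lowest value in each MCP LSC library, and the part of any of these in the result was not tested.

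The make-up of the set, each gene as a percent of the summed RPKM of the 10, showed where the groups departed from each other. ATP8 made up 1.34% ± 0.386 in KO LSC (SD, n = 3; 1.12% ± 0.127 without the library labelled KO LSC 2, n = 2), 4.25% ± 2.42 in WT LSC (n = 3), 8.45% ± 1.85 in KO LSK (n = 2) and 9.96% ± 2.47 in WT LSK (n = 2). It made up 13.9% ± 0.404 in MCP LSC and 12.7% ± 0.2 in Veh LSC (n = 3 each). COX3 made up 8.79% ± 7.12 in KO LSC, or 4.98% ± 3.82 without that library, 6.5% ± 0.67 in WT LSC, 15.4% ± 2.47 in KO LSK and 17.2% ± 0.919 in WT LSK. CYTB was the largest member in KO LSC with 24.7% ± 5.12, or 27% ± 4.6 without the library labelled KO LSC 2, against 15.8% ± 5.27 in WT LSC, and made up 11.8% ± 0.778 in KO LSK and 11.8% ± 0.283 in WT LSK. ATP6 led in both LSK groups with 18.3% ± 0.283 in KO LSK and 19.4% ± 0.424 in WT LSK, ahead of COX3 and COX1. COX1 led in the drug experiment with 16.7% ± 0.693 in MCP LSC and 17.8% ± 0.153 in Veh LSC. In Veh LSC it stood apart from CYTB, next with 14.7% ± 0.416, and CYTB and ATP6, at 14.5% ± 0.231, did not differ beyond their spread. ND3 had the smallest mean share in all 6 groups, between 1% and 1.76%.

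**Figure D4:**
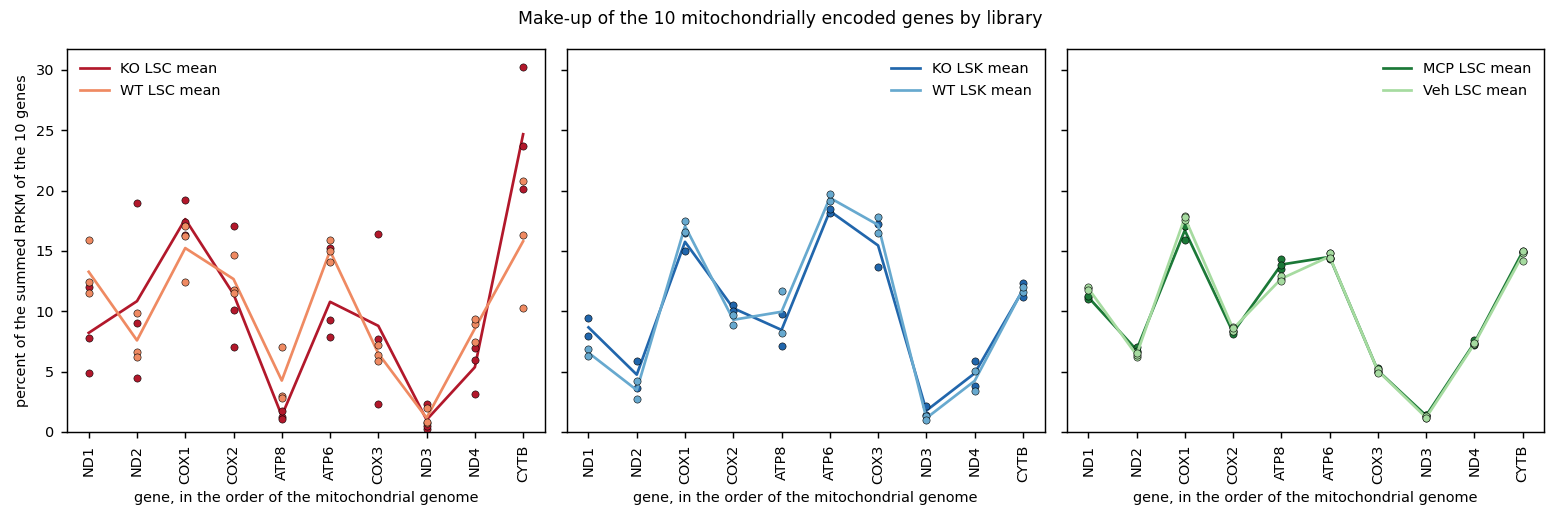
Percent of the summed RPKM of the 10 genes (y axis) by gene in genome order (x axis), for KO LSC and WT LSC, KO LSK and WT LSK, and MCP LSC and Veh LSC; points are libraries and lines group means. The MCP and Veh lines nearly coincide, while KO LSC shows a high CYTB (24.7% on average) and a low ATP8 (1.34%).

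ATP8, ATP6 and COX3 lie next to each other and are transcribed as 1 RNA, of which ATP8 and ATP6 stay joined, so their ratios were set side by side. The ATP8 to ATP6 ratio of RPKM was 0.155, 0.117 and 0.111 in KO LSC, 0.196, 0.443 and 0.196 in WT LSC, 0.54 and 0.386 in KO LSK and 0.431 and 0.593 in WT LSK. It was 0.97, 0.948 and 0.953 in MCP LSC and 0.885, 0.873 and 0.87 in Veh LSC. All KO LSC ratios lay below all others, and those of MCP LSC lay above those of Veh LSC. The COX3 to ATP6 ratio was 0.979, 1.08 and 0.245 in KO LSC, 0.426, 0.454 and 0.416 in WT LSC, 0.953 and 0.742 in KO LSK, 0.863 and 0.905 in WT LSK, 0.346 to 0.358 in MCP LSC and 0.337 to 0.355 in Veh LSC. In this ratio the first KO LSC library and the library labelled KO LSC 2 lay above all others, and the third lay below all others.

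Within groups the 10 genes varied less than other highly expressed features in KO LSC and in the drug experiment. These other features had a group mean at or above the lowest of the 10 genes (687 RPKM in KO LSC), with no upper limit. A feature high in 1 library alone could enter that way. The median SD of log2 values over the 10 genes was 0.86 in KO LSC, beside 2.51 for these other features, and 0.40 in WT LSC, beside 0.49. It was 0.40 in KO LSK, beside 0.28, and 0.49 in WT LSK, beside 0.43. In MCP LSC it was 0.04, beside 0.08, and in Veh LSC 0.04, beside 0.09. Across the 10 libraries of the CD93 experiment the 45 pairs of genes had a median Pearson correlation of 0.58, with 31 pairs positive and the lowest at -0.77 between ND3 and COX3. Across the 6 libraries of the drug experiment all 45 pairs were positive, with a median of 0.94 and the lowest at 0.73 between COX1 and COX3. The libraries fall into groups that differ in depth and in features detected, so these correlations are descriptions. The features most like the mean of the 10 genes over the CD93 libraries, out of 7554, were Arglu1 (0.963), Rpl10 (0.949), Rpl21 (0.935), Fyb (0.926) and Prdx5 (0.921). Over the 6 drug libraries, out of 8566, they were Ctsg (0.994), Ncln (0.992), Cox7a2 (0.992), Pdia3 (0.991) and Rpl31 (0.990).

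The other genes of the mitochondrial genome were set beside the 10. ND4L, ND5 and ND6, the remaining complex I subunits encoded there, gave no limma call in any comparison (smallest unadjusted p 0.129). In the library labelled KO LSC 2 all 3 were far below the rest of the series, with ND4L at the lowest value of 0.003 RPKM, ND5 at 61.1 RPKM and ND6 at 101 RPKM, while ND6 spanned 701 to 6910.4 RPKM in the other libraries. Rnr1 and Rnr2, the rRNAs of the mitochondrial ribosome, were higher in WT LSC than in WT LSK by 4.88 (SE 0.77, adjusted p = 0.00115) and 3.43 (SE 0.66, adjusted p = 0.0033). Rnr1 was also higher in KO LSC than in KO LSK by 2.74 (SE 0.77, adjusted p = 0.0158), and by 3.35 without the library labelled KO LSC 2 (adjusted p = 0.0063). After quantile normalization Rnr1 passed in WT LSC against WT LSK (4.02, adjusted p = 0.00363), but Rnr2 did not (1.17, adjusted p = 0.166), nor did Rnr1 in KO LSC against KO LSK (1.94, adjusted p = 0.0753). Without the first KO LSK library that call of Rnr1 was lost too (1.98, adjusted p = 0.131). Together the 2 rRNAs took 2.37%, 0.793% and 3.06% of the total in KO LSC, 6.19%, 7.94% and 4.38% in WT LSC, 0.559% and 1.12% in KO LSK and 0.807% and 0.317% in WT LSK. In the drug experiment they took 17.8%, 17.9% and 16.9% in MCP LSC and 15.7%, 11.3% and 14% in Veh LSC, with differences of 0.54 for Rnr1 (adjusted p = 0.081) and 0.48 for Rnr2 (adjusted p = 0.115). The rRNA share was above that of the 10 protein genes in both drug groups, below it in KO LSC, KO LSK and WT LSK, and on either side of it in WT LSC.

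Pooled over complexes I to V, the nuclear-encoded subunits had medians below 0 in the leukemia comparisons under each of the 3 scalings. The complexes differed. In WT LSC against WT LSK the unscaled medians were -0.17, -5.45, -0.36, 0.56 and -0.42 for complexes I to V, beside -1.94 over all features. In KO LSC against KO LSK they were -4.33, -7.45, -0.76, -2.85 and -2.49, beside -3.06. In summed RPKM, only complex II was lower in every LSC library than in the LSK libraries of its label. Nuclear complex I subunits summed to 25400 to 30900 RPKM in WT LSC and 15100 to 25300 RPKM in WT LSK. In KO LSC they summed to 27900 to 58600 RPKM, which overlapped 21900 to 29400 RPKM in KO LSK. Of these 36, 11 to 25 lay at the lowest value in a KO LSC library. In a WT LSC library 0 to 1 did, and in the LSK libraries 0. Of 74 nuclear-encoded subunits of complexes I to V, 1 was higher and 6 were lower in WT LSC than in WT LSK, where 1.45% of all features were higher and 42.3% lower, with a median of -0.21 beside -1.94 over all features. In KO LSC against KO LSK 4 were higher and 16 lower, where 0.564% of all features were higher and 61.7% lower, with a median of -3.56 beside -3.06. Without the library labelled KO LSC 2 these were 3 higher and 25 lower, with a median of -4.83. In that fit 94 of 13472 features were higher and 7934 lower, with a median of -3.13. In KO LSC against WT LSC 1 was higher and 8 were lower, where 0.0742% of all features were higher and 8.74% lower. Without the library labelled KO LSC 2 these were 0 and 16, where 11 of 13472 features were higher and 1194 lower. Sdhd, a membrane anchor of complex II, which has no subunit encoded in mitochondria, lay at the table's minimum in each of the 6 LSC libraries and averaged 341 ± 60.2 RPKM in KO LSK and 334 ± 68 RPKM in WT LSK (SD, n = 2 each; adjusted p = 4.52e-06 for WT LSC against WT LSK). Ndufb11, an accessory subunit of complex I, lay at the minimum in each KO LSC library and averaged 405 ± 198 RPKM in WT LSC (n = 3, adjusted p = 0.000536). For Sdhd and Ndufb11 the groups wholly at the minimum add no spread to the test. Their p-values therefore cannot tell a fall from RNA that went undetected. Uqcr11, a small subunit of complex III, was the 1 that was higher in WT LSC, at 2210.0 ± 413 RPKM (n = 3), against 750.1 ± 354 RPKM in WT LSK (n = 2), which is 1.62 higher on the log2 scale (SE 0.50, adjusted p = 0.0301). This call was lost after quantile normalization (adjusted p = 0.0642) and without the second WT LSK library or the first or the third WT LSC library (adjusted p = 0.0779 to 0.175).

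Of 35 genes for keeping and expressing mitochondrial DNA, 18 were lower and 0 higher in WT LSC than in WT LSK (median -2.82), and 26 lower and 0 higher in KO LSC than in KO LSK (median -4.12; 26 and -4.15 without the library labelled KO LSC 2). Of all features 42.3% were lower in WT LSC and 61.7% in KO LSC, or 7934 of 13472 without the library labelled KO LSC 2. After quantile normalization 8 and 17 of the 35 were lower. Their medians were then -0.68 and -1.75, beside -0.50 and -1.14 over all features. In KO LSC against KO LSK 5170 of the 13485 features were lower after it. Of the 35, 7 to 22 lay at the lowest value in a WT LSC library, 28 to 34 in a KO LSC library and 0 in the LSK libraries. Their summed RPKM was 1110 to 1840 in WT LSC and 2190 to 2550 in WT LSK. In KO LSC it was 1200 to 2830, which overlapped 2330 to 2520 in KO LSK. Tufm, the mitochondrial elongation factor Tu, was at the lowest value in every LSC library of the CD93 experiment and averaged 43.6 ± 2.46 RPKM in KO LSK and 44 ± 2.57 RPKM in WT LSK (n = 2 each, adjusted p = 5.21e-06 and 4.52e-06). In KO LSC against WT LSC 4 of the 35 were lower, where 8.74% of all features were. Without the library labelled KO LSC 2 it was 3 of the 35, where 1194 of 13472 features were lower. Among the 4 was Oxa1l, the insertase that places these proteins in the inner membrane. Oxa1l lay at the lowest value in KO LSC and averaged 34.7 ± 20 RPKM in WT LSC (n = 3 each, adjusted p = 0.00108). As for Tufm, this p cannot tell a fall from RNA that went undetected. None of the 74 or the 35 passed limma's test in KO LSK against WT LSK, where at most 1.83% of all features did.

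In the drug experiment most differences of the nuclear subunits were above 0. Of the 74, 8 were higher in MCP LSC and 0 lower, where 0.521% of all features were higher and 1.8% lower. Above 0 were 60 of the 74 and 28.2% of all features, with medians of 0.20 and -0.18. After quantile normalization 9 were higher and 64 above 0, with a median of 0.25 beside -0.03 over all features. With equal column totals 7 were higher, 1 lower and 51 above 0, where 97 of all features were higher and 1627 lower. The medians were then 0.07 and -0.30. Cox6c of complex IV averaged 463 ± 15.9 RPKM in MCP LSC and 335 ± 18.3 RPKM in Veh LSC (SD, n = 3 each; log2 difference 0.47, SE 0.07, adjusted p = 0.0247). Ndufb9 of complex I averaged 226 ± 11.8 RPKM in MCP LSC and 159 ± 9.44 RPKM in Veh LSC (0.50, SE 0.08, adjusted p = 0.0264). Atp5l of complex V averaged 48.8 ± 7.72 RPKM in MCP LSC and 29.1 ± 2.28 RPKM in Veh LSC (0.72, SE 0.14, adjusted p = 0.0466). Without any 1 Veh LSC library none of these 3 calls held (adjusted p = 0.051 to 0.203), and Ndufb9 (adjusted p = 0.0504) and Atp5l (adjusted p = 0.0696) also lost theirs without the third MCP LSC library, as did Atp5l without the first (adjusted p = 0.0718). Of the 35 genes for mitochondrial DNA and its expression none passed limma's test, where 2.32% of all features did. Their median was -0.15, beside -0.18 over all features. With equal column totals 2 passed as lower, as did 1627 of all features. Myc, a regulator of mitochondrial biogenesis among much else, fell by 0.52 (SE 0.10, adjusted p = 0.0466), a call that was lost after quantile normalization (-0.49, adjusted p = 0.0539) and in 5 of the 6 fits that left out 1 library (adjusted p = 0.0681 to 0.185).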

How the data were processed

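RNA from bone marrow cells sorted by flow cytometry (FACS) was extracted with the RNeasy Micro Kit and made into libraries with SMART-Seq v4, per the labels' protocols. The 16 libraries fell into 6 groups by title. Nothing in the labels ties replicates to separate animals, so p-values may measure technical spread alone. The deposited values are RPKM, inferred from the values. Per the submitters' processing notes the build was GRCm38 (mm10), and no aligner, counter or annotation is named in these sources. The lowest value of a table (0.003 for the CD93 and 0.001 for the drug libraries) stands for no signal.

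Values were tested as log2(RPKM + 1) in limma 3.58.1 under R 4.3.3 (statmod 1.5.0), using a trended prior and 1 mean per group, in 1 model for the 10 libraries of the CD93 experiment and another for the 6 of the drug experiment. A feature entered the test with 1 RPKM or more in 2 or more libraries, which left 13485 and 14005, all 10 genes among them. P-values are two-sided, adjusted by Benjamini-Hochberg over all tested features, with a threshold of 0.05. A log2 difference is on the log2(RPKM + 1) scale, and the added 1 sets its size for features at the lowest value, for which levels are printed. The model was run on simulated data in which a feature had the same spread in all groups. How it behaves under the unequal spreads of these groups was therefore not tested. Depth was estimated from the spacing of low values in single-exon genes, where 58.4% to 87.5% of low values lay within 0.1 of a whole number of reads. The spacing was chosen for that closeness, so these percents do not check the estimates, which rested on 16 to 97 low values a library. No counting interval was computed.

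Nuclear copies were sought with blastn 2.17.0 among GENCODE M21 transcripts. Of 196 list entries 185 matched the CD93 table by symbol and 9 by synonym, and 193 and 2 the drug table. All 10 genes are named, up to 4 passing genes with the smallest p from each other list, the 5 features of at least 5 RPKM with the most like pattern, and Cd93, Kit and Ly6a. The 10 genes and the lists were chosen with earlier results of these data known. The alternatives were quantile normalization, equal column totals, a pseudocount of 0.1, no filter, a mean of at least 5 RPKM, the replicate number as a block, library weights, the compared groups alone, and leaving out each library. Scaling and left-out libraries for the lists, the make-up and genes outside the set were chosen after seeing the data. Same-numbered libraries correlated at -0.28 to 0.01 in their deviations, so the numbers were not taken to pair libraries.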

Additional observations from a re-analysis of the deposited data

How the results depend on the processing

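The number of the 10 genes that passed depended on the processing. In KO LSC against WT LSC it was 1 in the report, 2 after quantile normalization, and 0 without a filter, with the replicate block, with library weights and with the compared groups alone. In WT LSC against WT LSK it was 4, against 6 with the compared groups alone, where COX1 and COX2 passed too, 1 after quantile normalization, 2 with the replicate block and 0 with library weights. In KO LSC against KO LSK it was 4, against 2 after quantile normalization, with the replicate block and with the compared groups alone, and 0 with library weights. In MCP LSC against Veh LSC it was 2, against 1 after quantile normalization and 0 without a filter, with the replicate block and with library weights. Leaving out 1 library gave 0 to 1, 0 to 4, 1 to 5 and 0 to 1 in these 4 comparisons, and 0 in KO LSK against WT LSK and in the difference of the leukemia effects. In these last 2 no setting gave a call among the 10. Fits that left 1 LSK library in a group assumed that it varied like the other groups.

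The replicate block lowered the calls over all features from 325 to 39 in MCP LSC against Veh LSC, from 247 to 5 in KO LSK against WT LSK, and from 820 to 0 for the difference of the leukemia effects. In 1 of 8 cases a library correlated best with its own number, as a hint from the data and not the design. With the LSK numbers crossed, an alternative chosen after seeing the data, 192 features and 0 of the 10 genes passed in KO LSK against WT LSK. Other counts over all features that moved by over 1.5 times were 418 without a filter, 1 with a mean of at least 5 RPKM, 469 with library weights and 0 with the compared groups alone in KO LSK against WT LSK, 3021 (against 5905) with a mean of at least 5 RPKM in WT LSC against WT LSK, 5395 with quantile normalization and 5396 with a mean of at least 5 RPKM (against 8391) in KO LSC against KO LSK, and 1724 with equal column totals in MCP LSC against Veh LSC. Leaving out 1 library gave 964 to 2065 (against 1188) in KO LSC against WT LSC, 357 to 943 in KO LSK against WT LSK, 491 to 1558 for the difference of the effects and 25 to 406 in MCP LSC against Veh LSC. Of the calls over all features, 22.5% were higher in MCP LSC, 39.3% after quantile normalization and 5.63% with equal column totals. In WT LSC against WT LSK 3.32% were higher, and 13.9% after quantile normalization.

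Outside the fits that left out 1 library, the sign of single genes turned 24 times, 17 of them under quantile normalization. This gave -0.04 for ND2, -0.04 for COX1 and -0.30 for COX3 in KO LSC against WT LSC. In KO LSK against WT LSK it gave -0.20 for CYTB, -0.28 for COX1, -0.25 for COX3 and -0.37 for ATP6. It gave -0.21 for COX1 and -0.47 for ATP6 in WT LSC against WT LSK, -0.86 for ATP6 in KO LSC against KO LSK (adjusted p = 0.0091, limma), and -0.06 for COX3 in the difference of the effects. In MCP LSC against Veh LSC it gave -0.16 for ND1, -0.07 for CYTB, -0.36 for COX1, -0.02 for COX2, -0.17 for ATP6 and -0.11 for ATP8. Equal column totals gave -0.04 for COX1 and -0.07 for COX3 in KO LSK against WT LSK. The replicate block gave 0.16 for COX3 in WT LSC against WT LSK and 0.23 for COX3 in KO LSC against KO LSK. Library weights gave 0.03 for ATP8 in WT LSC against WT LSK, and -0.08 for COX1 and -0.15 for COX3 in the difference of the effects. The cause was not tested.

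Leaving out 1 library turned the sign of some genes that had not passed. The ranges in KO LSC against WT LSC were -0.65 to 0.53 for COX2, -0.16 to 0.71 for COX3 and -0.30 to 0.78 for ND2. In KO LSK against WT LSK they were -0.16 to 1.0 for ND4, -0.09 to 0.53 for CYTB, -0.22 to 0.44 for COX1, -0.17 to 0.31 for COX3 and -0.13 to 0.41 for ATP6. They were -0.34 to 0.13 for COX3 and -0.33 to 0.12 for ATP8 in WT LSC against WT LSK, and -1.36 to 0.31 for ND3 and -0.34 to 0.54 for COX3 in KO LSC against KO LSK. For the difference of the effects they were -0.11 to 0.63 for COX1, -0.23 to 0.64 for COX3, -0.97 to 0.35 for ND2 and -1.02 to 0.16 for COX2.

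The mean share of the 10 genes was 2.81% in MCP LSC and 2.64% in Veh LSC. It was 3.42% in MCP LSC and 3.06% in Veh LSC with the mitochondrial rRNAs and Malat1 left out of the total, 3.16% in MCP LSC and 2.91% in Veh LSC over names that both experiments list, and 2.45% in MCP LSC and 2.12% in Veh LSC as a percent of reads, an alternative chosen after seeing the data. In the 4 other groups these moved by less than 1 SD. Depth is unknown for the KO LSC libraries, where few features were detected.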
